A study of Danio rerio with 53 samples.

Results

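The genes described here encode the machinery by which the endoplasmic reticulum (ER) takes in, folds, modifies and, where needed, disposes of secreted and membrane proteins. They were chosen by symbol, as every row of the count table whose symbol begins with a stem of a translocon, signal recognition, signal peptidase, oligosaccharyltransferase, ER chaperone, protein disulfide isomerase, ER-associated degradation or ER stress sensor gene. By that rule 62 of the 14423 genes in the table were members. Of these, 18 act in targeting and translocation, 3 in signal peptide cleavage, 7 in the transfer of glycans, 15 as chaperones or their partners, 7 as disulfide isomerases, 10 in degradation and 2 as stress sensors. The stem of one co-chaperone also caught dnajc30b, whose protein belongs to mitochondria. It was kept as a member and lay at 0 in most cell types.

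A protein that is to be secreted is bound by the signal recognition particle as it leaves the ribosome and is threaded through the SEC61 channel into the ER. There its signal peptide is cut off, glycans are added, and chaperones such as BiP (HSPA5), GRP94 (HSP90B1) and calreticulin hold it until disulfide bonds have formed; proteins that fail are drawn back to the cytosol and degraded. In the B lineage the antigen receptor is an immunoglobulin, and cells that go on to secrete antibody are known for raising this machinery through the transcription factor XBP1 and the sensors IRE1 (ern1) and ATF6 (atf6).

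The libraries came from lymphocytes of zebrafish that carried a red transgene under a rag2 or lck promoter together with a green transgene under a cd79a or cd79b promoter. All groups carried such a pair and none was treated, and the labels give no age, sex or number of animals. In each of 4 lines (rag2RFP-cd79bGFP, rag2RFP-cd79aGFP, lckmCherry-cd79bGFP and lckmCherry-cd79aGFP) fluorescent populations were sorted from thymus or marrow, so a population is defined by its reporter colours and light scatter and not by surface proteins. The rag2 promoter is active while antigen receptor genes are being rearranged, that of lck in T cells, and those of cd79a and cd79b in the B lineage. The thymus gave T Stage I (6 libraries, rag2RFP-cd79aGFP line), T Stage II (6, both rag2 lines), T Stage III and T Stage IV (3 each, lckmCherry-cd79aGFP line) and thymic B cells (11, all 4 lines). T Stage I joins 2 sorted populations of the rag2RFP-cd79aGFP line, T2 and T3, with 3 libraries each. The marrow gave early B-committed cells (3, both rag2 lines), B Stage I and B Stage II (6 each, both rag2 lines), B Stage III (3, rag2RFP-cd79bGFP line) and early T-committed cells (6, both lck lines). Library preparation read the 3′ ends of transcripts, so counts do not scale with transcript length, and levels are given as CPM, the count scaled by the library total so that each library has the same sum, and compared between libraries and not between genes. Nothing in the labels says that the libraries of a group came from separate animals, so p-values measure the spread between these libraries, which may be technical.

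Libraries held 7295854 to 18778603 counts. They differed in complexity: 3803 to 8910 genes were detected in thymic B libraries and 4277 to 7929 in early T-committed libraries, against 7569 to 11360 in the thymic T libraries. The summed level of 9 measured B cell markers was 3371 to 11183 CPM in thymic B cells and at most 22.9 CPM in the thymic T stages, and that of 10 T cell markers was 2718 to 6346 CPM in the thymic T stages and 41.0 to 295 CPM in thymic B cells. Early B-committed libraries held less of the B cell markers (844 to 1145 CPM), and early T-committed libraries less of the T cell markers (464 to 2329 CPM). In 1 early T-committed library (lckmCherry-cd79aGFP replicate 55) the T cell sum was 464 CPM and the B cell sum 219 CPM. Myeloid transcripts (9 of 10 listed genes measured) summed to 390 to 1835 CPM in early T-committed cells and 220 to 1628 CPM in early B-committed cells, and reached 1141 CPM in B Stage II, against at most 309 CPM in any thymic population. Erythroid transcripts (3 of 6 listed genes measured) reached 9570 CPM in early B-committed and 16945 CPM in early T-committed cells, against at most 1685 CPM in the thymic populations, and the kidney tubule list (7 of 9 genes measured) reached 2489 CPM in B Stage III and 1527 CPM in B Stage I, against at most 19.4 CPM in the thymic T stages. The part of these other transcripts in the results below was not tested.

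The members together made up a small share of each library. Summed over the members, thymic B cells averaged 5220 CPM (SD 992, n = 11), B Stage I averaged 5387 CPM (SD 538, n = 6) and B Stage III averaged 6015 CPM (SD 2288, n = 3). Early B-committed cells averaged 4640 CPM (SD 975, n = 3) and B Stage II averaged 4043 CPM (SD 685, n = 6). Of the T lineage, early T-committed cells averaged 4545 CPM (SD 1349, n = 6), T Stage I averaged 3855 CPM (SD 451, n = 6) and T Stage II averaged 4032 CPM (SD 292, n = 6). Within T Stage I, population T2 held 3843 to 4683 CPM and population T3 held 3420 to 3767 CPM, with no overlap. T Stage III averaged 3605 CPM (SD 797, n = 3) and T Stage IV averaged 3714 CPM (SD 922, n = 3). Neighbours in this order lay within each other's spread, and the high mean of B Stage III rested on 1 library at 8652 CPM, since the others held 4842 and 4552 CPM. Every library of B Stage I (4633 to 6082 CPM) and of B Stage III exceeded every T Stage II library (3559 to 4443 CPM). With all lines joined, thymic B cells (3915 to 6833 CPM), early B-committed cells and B Stage II overlapped them. Within a line thymic B cells and T Stage II did not overlap. They held 4184 to 5400 against 3559 to 4017 CPM in the rag2RFP-cd79bGFP line. In the rag2RFP-cd79aGFP line they held 5154 to 6833 against 3977 to 4443 CPM. Without SEC61G they overlapped in both rag2 lines. In the lckmCherry-cd79aGFP line thymic B cells (3915 to 4974 CPM) overlapped T Stage III (2833 to 4424 CPM) and T Stage IV (2739 to 4571 CPM). With lines joined, T Stage I (up to 4683 CPM) overlapped B Stage I and B Stage III, and T Stage IV overlapped B Stage III.

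**Figure D1:**
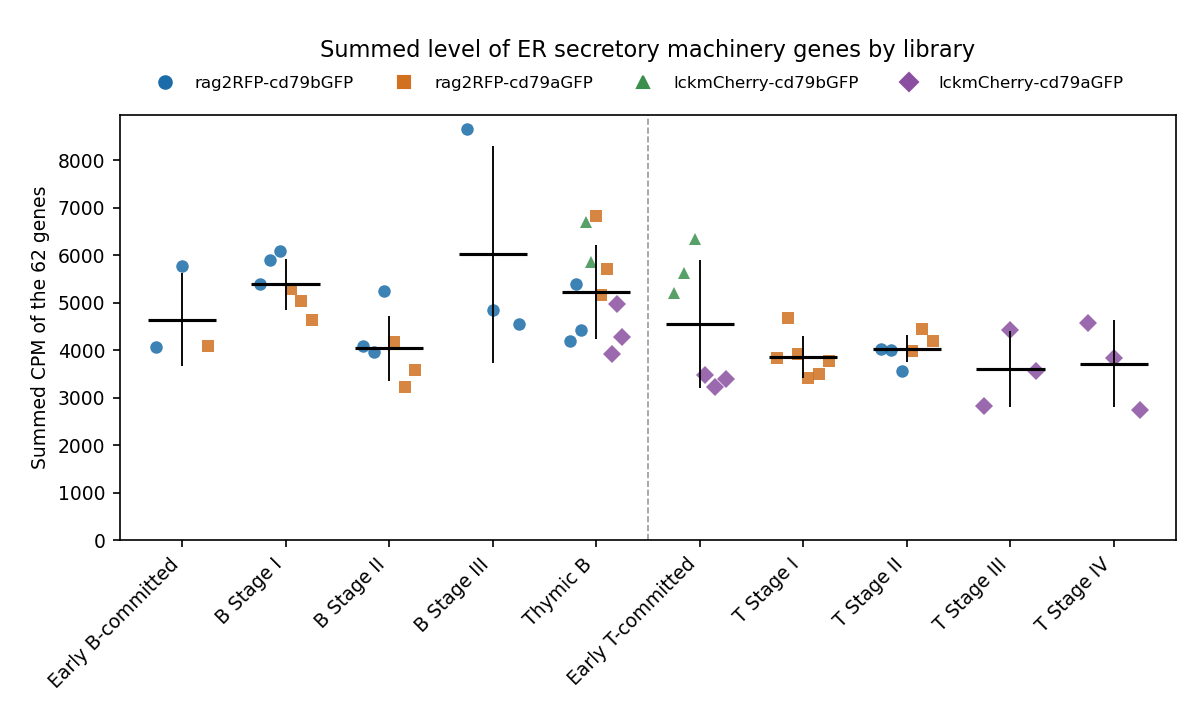
Summed CPM of the 62 ER secretory machinery genes in each of 53 libraries, grouped by cell type on the x axis with B lineage names left and T lineage names right of the dashed line. Each point is a library, its colour and shape give the line, horizontal bars are means and vertical bars are SDs. B Stage I lies between 4633 and 6082 CPM and T Stage II between 3559 and 4443 CPM, and the early T-committed libraries split by line.

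Thymic B cells can be set against thymic T cells of the same line in 3 lines. The summed level was 1.21 times as high in thymic B cells in the rag2RFP-cd79bGFP line, 1.49 times in the rag2RFP-cd79aGFP line and 1.20 times in the lckmCherry-cd79aGFP line, a mean ratio of 1.30. Without SEC61G, the member with the highest level, the ratio was 1.12. The ratio was 1.49 with TMM scaling and 1.58 with median-ratio scaling, so its size depends on how libraries are put on a common scale. The early T-committed libraries were not alike. Those of the lckmCherry-cd79bGFP line held 5206, 5628 and 6350 CPM and those of the lckmCherry-cd79aGFP line 3230, 3387 and 3469 CPM, with no overlap. Fewer genes were detected in the former (4277 to 6339) than in the latter (7661 to 7929). HSPA5 alone stood at 504, 592 and 865 CPM in the former and at 143, 122 and 150 CPM in the latter. This difference between lines was not tested.

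Against the thymic T stages, thymic B cells had higher levels of 8 members and lower levels of none, at an adjusted p under 0.05 (called, below) in edgeR's quasi-likelihood test with Benjamini-Hochberg adjustment over all 14423 genes. The 8 were SEC61G, SEC61B, HSP90B1, calr3a, CALR, dnajc3a, HERPUD1 and os9, and the other 54 did not pass. That is 12.9% of the members, while 11.2% of all genes tested were called, 4.69% higher and 6.51% lower. The median log2 fold change of the members was 0.17 and that of all genes was -0.72. Fewer genes were detected in the thymic B libraries (above), and the part of this in the fold changes was not tested. At an unadjusted p under 0.05 there were 13 members higher and 1 lower, and 20.5% of all genes were past that limit, 7.41% higher and 13.1% lower. The count depends on how the dispersion is estimated: with an estimated trended dispersion 4 of the 8 (SEC61G, HSP90B1, calr3a and HERPUD1) were called, and these 4 were also called when any of the 27 libraries was left out. With the trended dispersion 11.2% of all genes were called as well. On simulated data the share of false calls of the main test was above its nominal level, and SEC61B, dnajc3a and CALR lay nearest the threshold. With DESeq2 15 members were called, 9 higher and 6 lower, against 35.9% of all genes with an adjusted p (8.6% higher and 27.3% lower). The 9 called higher were SEC61G, SEC61B, HSP90B1, calr3a, dnajc3a, HERPUD1, os9, DDOST and PDIA5. CALR was not among them. The 6 called lower by DESeq2 were SRP68, SRP14, RPN2, pdia7, SDF2L1 and STT3A, each with a mean of at most 14.8 CPM in thymic B cells and at 0 in 2 to 7 of the 9 thymic B libraries. The count fell to 5 without either of 2 rag2RFP-cd79bGFP T Stage II libraries (replicates 1 and 3). Without the thymic B library in which the fewest genes were detected it was 8, but not the same 8, since dnajc3a was then not called.

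The clearest difference was in the gamma subunit of the channel. SEC61G, the small gamma subunit of the SEC61 translocon, was at 745, 1936 and 434 CPM in thymic B cells of the rag2RFP-cd79bGFP line, at 873, 1551 and 1737 CPM in the rag2RFP-cd79aGFP line and at 539, 712 and 673 CPM in the lckmCherry-cd79aGFP line. Over the 18 thymic T libraries it ran from 125 to 463 CPM with a median of 308 CPM. Thus 8 of 9 thymic B libraries lay above every thymic T library, and the remaining one lay within their range. The fitted log2 fold change was 1.84 (SE 0.25, adjusted p = 1.11e-09). Within lines the groups did not overlap in the rag2RFP-cd79aGFP and lckmCherry-cd79aGFP lines and overlapped by 1 library in the rag2RFP-cd79bGFP line.

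SEC61B, the beta subunit, averaged 183 CPM (SD 73.9, n = 9) against 112 CPM (SD 44.2, n = 18) in thymic T cells, a log2 fold change of 0.95 (SE 0.32, adjusted p = 0.0314). Its groups separated in the rag2RFP-cd79bGFP line (146, 154 and 212 CPM against 71.6, 115 and 71.9 CPM) but not in the others, and the call was lost in 6 of 27 fits that left out a library. The alpha subunit, which forms the pore itself, did not pass in either of its rows: SEC61A1_ENSDARG00000021669 was at 105 ± 66.9 against 105 ± 25.3 CPM and SEC61A1_ENSDARG00000005675 at 57.4 ± 37.7 against 93.5 ± 58.9 CPM. Near-identical copies can share 3′ reads. Whether these rows do was not checked, so their separate values are uncertain.

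Around the channel sit the translocon-associated SSR proteins and, upstream of it, the signal recognition particle and its receptor. SSR4 was at 110 ± 67.6 CPM against 70.5 ± 36.9 CPM (log2 fold change 0.87, adjusted p = 0.13) and SSR2 at 366 ± 126 CPM against 413 ± 109 CPM (log2 fold change -0.01). SRP54, the subunit that binds the signal peptide, was at 38.7 ± 25.0 CPM against 23.5 ± 17.7 CPM and the receptor subunit srprb at 76.2 ± 51.7 CPM against 68.5 ± 33.3 CPM, and neither passed. SRP68, which pairs with SRP72 in the particle, had the lowest p among members with a negative value (4.94 ± 6.22 against 23.3 ± 14.0 CPM, log2 fold change -2.35, adjusted p = 0.064). In this role group 2 of 18 members were called higher and 16 did not pass, where 4.69% of all genes were called higher.

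**Figure D2:**
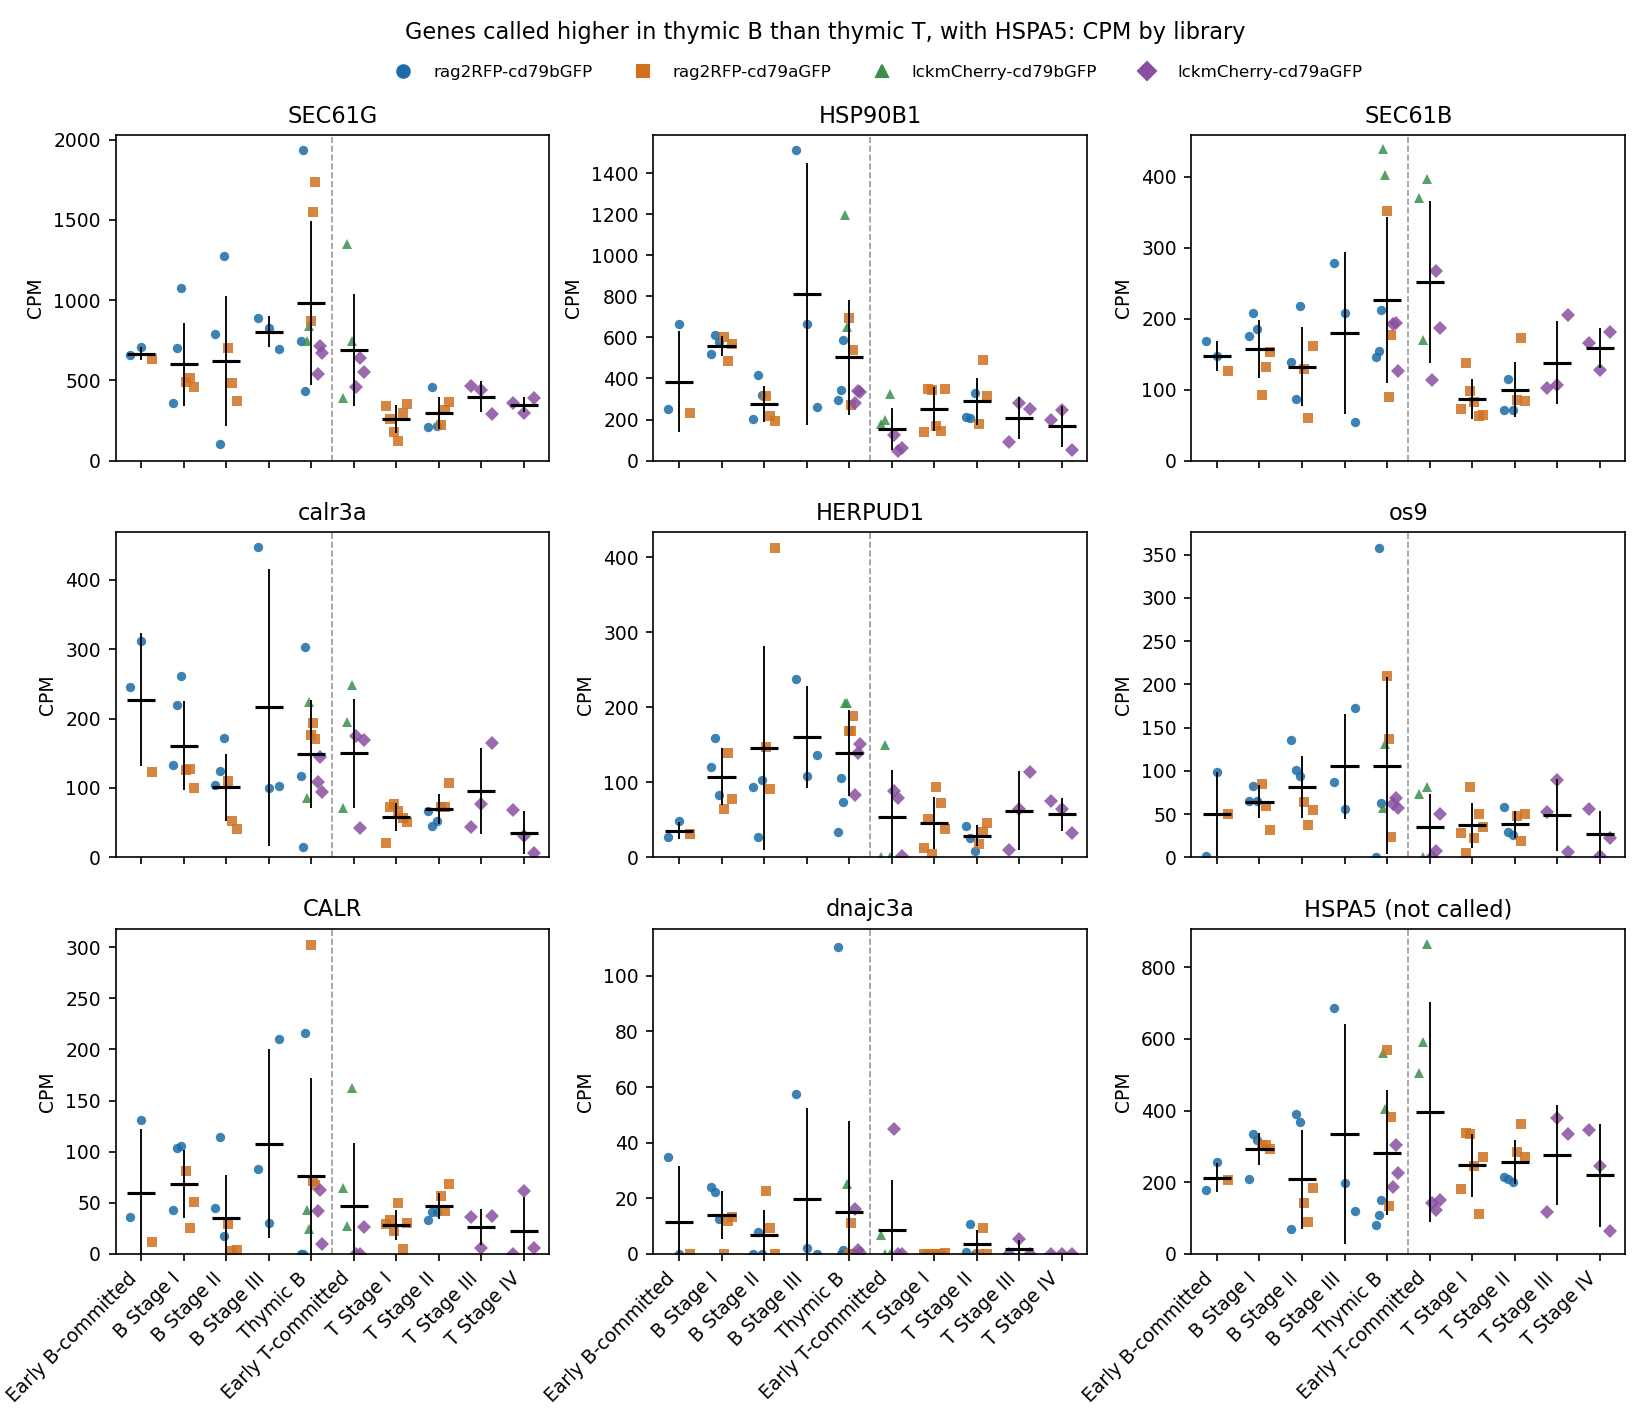
CPM in each library of the 8 members called higher in thymic B than in thymic T cells, and of HSPA5, over 10 cell types (B lineage left, T lineage right of the dashed line); points are libraries coloured by line, horizontal bars means and vertical bars SDs. SEC61G reaches 1936 CPM in thymic B cells against at most 463 CPM in the thymic T stages, while dnajc3a is at 0 in many libraries.

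Among chaperones, HSP90B1, calr3a, CALR and dnajc3a were called, the last 2 on few libraries. HSP90B1, the ER form of HSP90, was at 296, 344 and 585 CPM in thymic B cells of the rag2RFP-cd79bGFP line, 693, 270 and 541 CPM in the rag2RFP-cd79aGFP line and 280, 339 and 333 CPM in the lckmCherry-cd79aGFP line. The thymic T libraries ran from 53.2 to 490 CPM with a median of 229 CPM. The groups overlapped in each line, but thymic B cells had the higher mean in all 3, and the log2 fold change was 0.99 (SE 0.26, adjusted p = 0.00371).

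The calreticulins bind glycoproteins through their sugars and buffer calcium. The row calr3a was at 117, 15.1 and 304 CPM in thymic B cells of the rag2RFP-cd79bGFP line, 177, 194 and 170 CPM in the rag2RFP-cd79aGFP line and 108, 144 and 93.5 CPM in the lckmCherry-cd79aGFP line, against 6.58 to 165 CPM (median 66.7 CPM) in the thymic T libraries. It separated the groups in the rag2RFP-cd79aGFP line only, with a log2 fold change of 1.52 (SE 0.36, adjusted p = 0.000654). Its relative calr3b pointed the other way without passing (83.0 ± 76.9 against 135 ± 71.1 CPM, adjusted p = 0.367). CALR passed narrowly (85.8 ± 104 against 33.4 ± 19.8 CPM, log2 fold change 1.38, adjusted p = 0.0466). It was lost in 15 of 27 fits that left out a library and rested on few of them: 2 of the 9 thymic B libraries held 302 and 216 CPM while 2 others held 0 and 0.125 CPM, and without the library at 216 CPM (rag2RFP-cd79bGFP replicate 6) the log2 fold change was -1.96 (adjusted p = 0.707). Calnexin (CANX), the membrane-bound counterpart, was at 82.8 ± 51.9 against 54.4 ± 32.4 CPM (adjusted p = 0.14).

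HSPA5, the most general ER chaperone and a standard readout of ER stress, averaged 238 CPM (SD 157, n = 9) against 251 CPM (SD 91.9, n = 18) in thymic T cells, a log2 fold change of 0.06 (SE 0.29, adjusted p = 1). Its partners DNAJB11, SDF2L1, MANF and CRELD2 did not pass either. The co-chaperone dnajc3a, also known as P58IPK, was called (log2 fold change 4.51, SE 1.58, adjusted p = 0.0433), but it was at 0 in 3 of 9 thymic B and 12 of 18 thymic T libraries and reached 110 CPM in 1 rag2RFP-cd79bGFP library (replicate 4, with 3803 genes detected), without which the adjusted p was 0.963. Over the 27 fits that left out a library the call was lost in 15, and without rag2RFP-cd79aGFP replicate 34 the log2 fold change was 1.64 (adjusted p = 1). Over the role group, 4 of 15 members were called higher and 11 did not pass, where 4.69% of all genes were called higher.

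In ER-associated degradation 2 of 10 members were called higher, where 4.69% of all genes were. A role group this small allows no statement about the role. HERPUD1, a membrane protein that holds the degradation complex together and is known as a target of the stress response, was at 33.8, 105 and 73.9 CPM in thymic B cells of the rag2RFP-cd79bGFP line, 168, 168 and 189 CPM in the rag2RFP-cd79aGFP line and 83.1, 140 and 151 CPM in the lckmCherry-cd79aGFP line. In the thymic T libraries it ran from 3.98 to 114 CPM with a median of 40.2 CPM. The rag2RFP-cd79aGFP groups did not overlap, and the log2 fold change was 1.85 (SE 0.41, adjusted p = 0.000263). The lectin os9, which recognises misfolded glycoproteins, was at 109 ± 112 against 37.5 ± 24.9 CPM (log2 fold change 1.65, SE 0.47, adjusted p = 0.00853). The highest library held 358 CPM (rag2RFP-cd79bGFP replicate 5), and without it the log2 fold change was 0.94 (adjusted p = 0.271). EDEM1, DERL1 and SEL1L did not pass, and DERL3 stayed at or below 5.17 CPM in the libraries of both groups.

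No member of the remaining role groups was called. The signal peptidase subunits SPCS1 (142 ± 79.0 against 149 ± 40.3 CPM) and SPCS3 (113 ± 71.6 against 150 ± 53.8 CPM) did not pass. Of the oligosaccharyltransferase subunits, DAD1 was at 120 ± 57.7 against 126 ± 53.1 CPM and RPN1 at 47.3 ± 36.1 against 56.8 ± 18.2 CPM. DDOST did not pass here (adjusted p = 0.17 in edgeR), but was called higher by DESeq2 (adjusted p = 0.0311). The disulfide isomerases PDIA3, PDIA4 and PDIA6 had log2 fold changes of 0.28, 0.39 and 0.58 and none passed. PDIA5 did not pass in edgeR but was called higher by DESeq2 (adjusted p = 0.0026). It was at 0 in several libraries of both groups. Of the sensors, ern1 was at 60.0 ± 103 against 20.4 ± 14.9 CPM (adjusted p = 0.0899, which passed in 4 of 27 fits that left out a library), its thymic B values running from 0 in 2 libraries to 321 CPM, and atf6 was at 33.9 ± 18.1 against 30.6 ± 21.7 CPM.

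**Figure D3:**
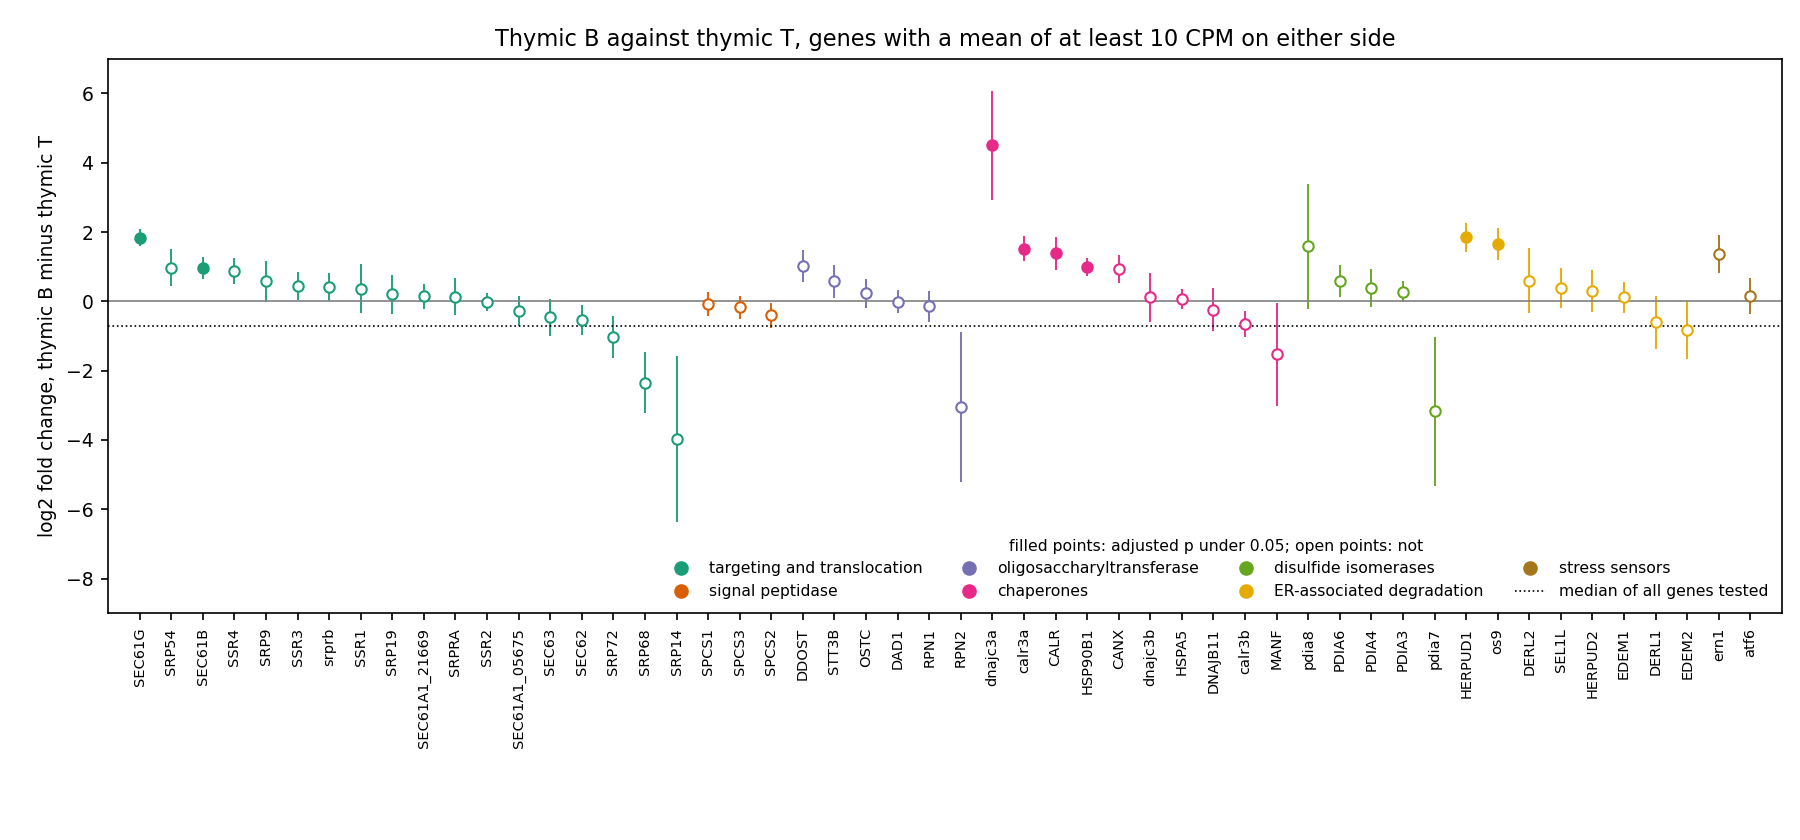
Log2 fold change of thymic B minus thymic T cells with its SE for the 52 members with a mean of at least 10 CPM on either side, coloured by role, filled where the adjusted p was under 0.05 (for SEC61A1 the last 5 digits of the identifier are shown). The dotted line is the median of all genes, -0.72; the 8 filled points lie above 0, and signal peptidase and oligosaccharyltransferase members have none.

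Markers of antibody-secreting cells reached higher sums in thymic B than in thymic T cells, with overlap between libraries. Of that list 2 of 8 genes were measured, XBP1 and irf4b, and the other 6 were not analysed here. Their summed level was 42.7 to 520 CPM in the 9 thymic B libraries of this comparison and 3.12 to 117 CPM in the thymic T stages. The library at 42.7 CPM (rag2RFP-cd79bGFP replicate 5) held the highest SEC61G value. Whether the sum and the called genes went together over libraries was not tested. Such levels were not particular to thymic B cells. The sum was 233 to 452 CPM in B Stage I, 265 to 721 CPM in B Stage II and 362 to 394 CPM in B Stage III. Early B-committed cells held 56.7 to 274 CPM and early T-committed cells 99.4 to 477 CPM. The part of antibody-secreting cells in the result was not tested. In bulk samples more cells of a type and more RNA per cell cannot be told apart.

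HSP90B1, HERPUD1 and SEC61G were also called in wider comparisons. These share libraries with the one above and are given side by side, not as independent support. Over all B against all T groups (29 and 24 libraries, 2 tissues mixed) 6 members were called higher, 9.68% of members against 6.01% of all genes called (3.08% higher and 2.93% lower): HSP90B1 (log2 fold change 1.35, SE 0.22), HERPUD1 (1.85, SE 0.34), SEC61G (1.05, SE 0.21), calr3a (1.02, SE 0.29), os9 (1.22, SE 0.39) and SSR4 (0.91, SE 0.30). Without early T-committed replicate 22, in which HERPUD1 was at 150 CPM, its log2 fold change was 4.79. The last 2 of these genes were near the threshold (adjusted p = 0.0414 for os9 and 0.048 for SSR4), and the count was 3 without 1 lckmCherry-cd79bGFP thymic B library (replicate 20). The os9 call was lost in 17 of 53 fits that left out a library. With median-ratio scaling 4 members were higher and 1 lower (6.17% of all genes called), and with DESeq2 10 were higher and 3 lower (32.9% of all genes called). Neither os9 nor SSR4 was among those called by DESeq2.

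B Stage I and T Stage II both carry the rag2 reporter and come from marrow and thymus. There HERPUD1, SEC61G and HSP90B1 were called higher (4.84% of members against 5.84% of all genes called, 3.4% higher and 2.43% lower). HERPUD1 ran from 65.0 to 159 CPM (median 101 CPM) in the 6 B Stage I libraries and from 8.91 to 45.8 CPM (median 29.3 CPM) in the 6 T Stage II libraries, with no overlap (log2 fold change 2.05, SE 0.58, adjusted p = 0.012). HSP90B1 was tightly set in B Stage I, from 486 to 610 CPM, and ran from 176 to 490 CPM in T Stage II (log2 fold change 1.13, SE 0.37, adjusted p = 0.0424). SEC61G was at 599 ± 259 against 298 ± 101 CPM (SD, n = 6 each, log2 fold change 1.15 in edgeR, adjusted p = 0.0265). These calls were not firm. With an estimated trended dispersion none was made, and without 1 T Stage II library (rag2RFP-cd79aGFP replicate 24) there were 0. Without any of 3 other libraries (rag2RFP-cd79bGFP T Stage II replicates 1 and 3 and B Stage I replicate 12) there was 1. Over the 12 fits that left out a library, the call was lost in 8 for HSP90B1, 5 for SEC61G and 3 for HERPUD1. DESeq2 called HSP90B1 and SEC61G higher but not HERPUD1. A fit to the libraries of this comparison alone called 9, with 12.7% of all genes called. HSPA5 was at 294 ± 44.3 CPM in B Stage I and 257 ± 61.9 CPM in T Stage II and did not pass.

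In the lck lines thymic B cells can be set against early T-committed cells of the marrow. HSP90B1 was at 1195 and 651 CPM in thymic B cells of the lckmCherry-cd79bGFP line against 177, 197 and 323 CPM, and at 280, 339 and 333 CPM in the lckmCherry-cd79aGFP line against 127, 44.7 and 61.5 CPM. It did not overlap in either line (log2 fold change 2.27, SE 0.40, adjusted p = 4.33e-06). HERPUD1 and MANF were also called, in all 3 members or 4.84% against 5.91% of all genes (3.52% higher and 2.39% lower). HERPUD1 was at 157 ± 51.6 against 53.3 ± 62.6 CPM (log2 fold change 1.89, adjusted p = 0.0271), with 2 of the 6 early T-committed libraries at 0 and 1 at 150 CPM, without which the log2 fold change was 7.79. MANF, a small protein that binds HSPA5 and is itself secreted, was at 53.3 and 33.8 CPM in thymic B cells of the lckmCherry-cd79bGFP line and at 0 in all 3 early T-committed libraries there, which allows up to 0.316 to 0.411 CPM. In the lckmCherry-cd79aGFP line it was at 17.8, 46.1 and 12.7 CPM against 17.7, 17.8 and 2.62 CPM, which overlap. The call (adjusted p = 0.0251) was lost in 6 of 11 fits that left out a library, as was that of HERPUD1. DESeq2 called HSP90B1 and MANF higher but not HERPUD1, and it also called EDEM2 higher and SDF2 lower. Only HSP90B1 was called when the lckmCherry-cd79bGFP thymic B replicate 19 or early T-committed replicate 21 was left out. SEC61G was not called here: thymic B cells held 539 to 838 CPM and early T-committed cells held 389 to 1351 CPM.

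Within the B lineage 1 member was called, in 1 comparison. Between thymic B cells and B Stage II of the rag2 lines SRP68 was called lower in thymic B cells (0 to 4.94 CPM against 0.385 to 43.9 CPM, adjusted p = 0.0473), 1.61% of members against 1.32% of all genes (0.367% higher and 0.957% lower), and this call was lost in 11 of 12 fits that left out a library. SEC61G ran from 434 to 1936 CPM in those thymic B libraries and from 104 to 1275 CPM in B Stage II. No member was called in the steps from early B-committed to B Stage I, from B Stage I to B Stage II or from B Stage II to B Stage III, where 1.05%, 1.12% and 0.0277% of all genes were called. For the first of these steps 0.582% of all genes were higher and 0.471% lower, and for the second 0.153% were higher and 0.964% lower. At an unadjusted p under 0.05, edgeR had 9 of 62 members higher in B Stage I than in early B-committed cells, 6 lower in B Stage II than in B Stage I and 7 higher in B Stage III than in B Stage II, where 6.09%, 6.17% and 4.18% of all genes were past that limit in the same direction, and 8.9%, 9.79% and 8.53% in either. DESeq2 called 11, 2 and 1 members in these steps, against 24.1%, 9.53% and 10.8% of all genes. Of the 6 that were lower in B Stage II (HSP90B1, DNAJB11, calr3b, SDF2L1, MANF and pdia8), HSP90B1 was at 277 ± 89.0 against 560 ± 48.1 CPM (unadjusted p = 0.0126 and adjusted p = 0.296 from edgeR). DNAJB11 was at 13.7 ± 9.95 against 55.7 ± 22.4 CPM (adjusted p = 0.258 from edgeR). Neither overlapped within either line, and none of the 6 passed the adjustment.

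Among T stages no member was called either. In edgeR, 2 members had an unadjusted p under 0.05 between T Stage I and T Stage II, 1 between T Stage III and T Stage IV and 2 between early T-committed cells and T Stage III, where 4.9%, 7.11% and 13.3% of all genes were past that limit. DESeq2 called 4, 1 and 0 members, against 6.54%, 9.58% and 13.8% of all genes. After adjustment edgeR called 0%, 0.0763% and 1.04% of all genes in these steps, the last being 0.444% higher and 0.596% lower in T Stage III. Whether the difference between thymic B cells and T Stage II depended on the line was tested in the rag2 lines. No member was called and 0.0208% of all genes were. The 5 members at an unadjusted p under 0.05 (DNAJB11, SEC63, atf6, SRP72 and SSR1) had the more positive difference in the rag2RFP-cd79aGFP line, and 8.27% of all genes were past that limit, 5.57% in that direction. DESeq2 called 5 members, against 18.9% of all genes.

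Over the 10 cell types the members did not share a single order. By the mean over libraries, 11 members were highest in B Stage I, 11 in B Stage III, 10 in early T-committed cells, 8 in early B-committed cells, 7 in T Stage I, 6 in thymic B cells, 5 in T Stage II and 2 each in T Stage III and T Stage IV, and none was highest in B Stage II. T Stage IV was counted as lowest for 16 members, early T-committed cells for 10, and B Stage I and thymic B cells for none. Where cell types tied at 0 CPM, the count went to the one furthest right in the figures, which favours T Stage IV. Some of its 16 came from such ties, as for pdia2 and EDEM3. In every B Stage I library pdia2 was also at 0, as was dnajc30b in every thymic B library. These are descriptions of means from 3 to 11 libraries, and the same counts were not made over all genes.

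Some of the called genes had higher means in most B than T populations. HERPUD1 had means of 107, 146, 161 and 139 CPM in B Stage I, B Stage II, B Stage III and thymic B cells and of 28.9 to 62.3 CPM in the T lineage. Without 1 library at 413 CPM (replicate 44) the B Stage II mean was 92.7 CPM, and without the highest library the means of T Stage III and early T-committed cells were 36.6 and 33.9 CPM. However, early B-committed cells, at 35.5 ± 11.6 CPM (SD, n = 3), lay with the T lineage. The os9 means ran from 50.0 to 106 CPM in the B lineage and from 26.4 to 49.0 CPM in the T lineage, but the lowest B mean, that of early B-committed cells, was 25.5 CPM without 1 library (replicate 8), within the T range. The highest and lowest T means, those of T Stage III and T Stage IV, were 29.0 and 11.5 CPM without their highest libraries (replicates 46 and 48). HSP90B1 ran from 277 to 813 CPM in the B lineage and from 155 to 288 CPM in the T lineage, B Stage II lying with T Stage II. The highest of these, in B Stage III, rested on 1 library at 1511 CPM (replicate 16) and was 463 CPM without it, and the early B-committed mean of 384 CPM was 243 CPM without replicate 8. SEC61G ran from 599 to 980 CPM in the B lineage and from 259 to 398 CPM in the thymic T stages, with early T-committed cells (689 ± 348 CPM, SD, n = 6) among the B lineage values. SEC61B did not split by lineage in this way: its means ran from 132 to 226 CPM in the B lineage and from 86.3 to 158 CPM in the thymic T stages, and early T-committed cells had the highest mean of all, 251 ± 114 CPM (SD, n = 6).

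Other members had the opposite or no clear lineage pattern. The row SEC61A1_ENSDARG00000005675 was at 179 ± 57.6 CPM in T Stage IV (SD, n = 3) and 109 ± 77.8 CPM in T Stage III (SD, n = 3), against 19.9 to 45.8 CPM in the marrow B populations and an average of 62.8 CPM (SD 44.5, n = 11) in thymic B cells, while the row SEC61A1_ENSDARG00000021669 ran from 83.0 to 170 CPM over all cell types. The T Stage III and T Stage IV libraries came only from the lckmCherry-cd79aGFP line. In T Stage II the mean of SEC61A1_ENSDARG00000005675 lay below that in thymic B cells. Neither SEC61A1 row was called in any of the 12 comparisons. calr3b was highest in T Stage I and T Stage II (161 ± 59.1 and 172 ± 71.1 CPM, SD, n = 6 each), where calr3a was at 57.6 ± 20.2 and 69.3 ± 21.6 CPM. DAD1 had its highest mean in B Stage I (268 ± 57.7 CPM) and its lowest in T Stage I (114 ± 69.6 CPM). DESeq2 called it higher over all B against all T groups (log2 fold change 0.60, adjusted p = 0.0378). It did so too in B Stage I against T Stage II (1.09, adjusted p = 0.0403 from DESeq2), and edgeR called it in neither.

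**Figure D4:**
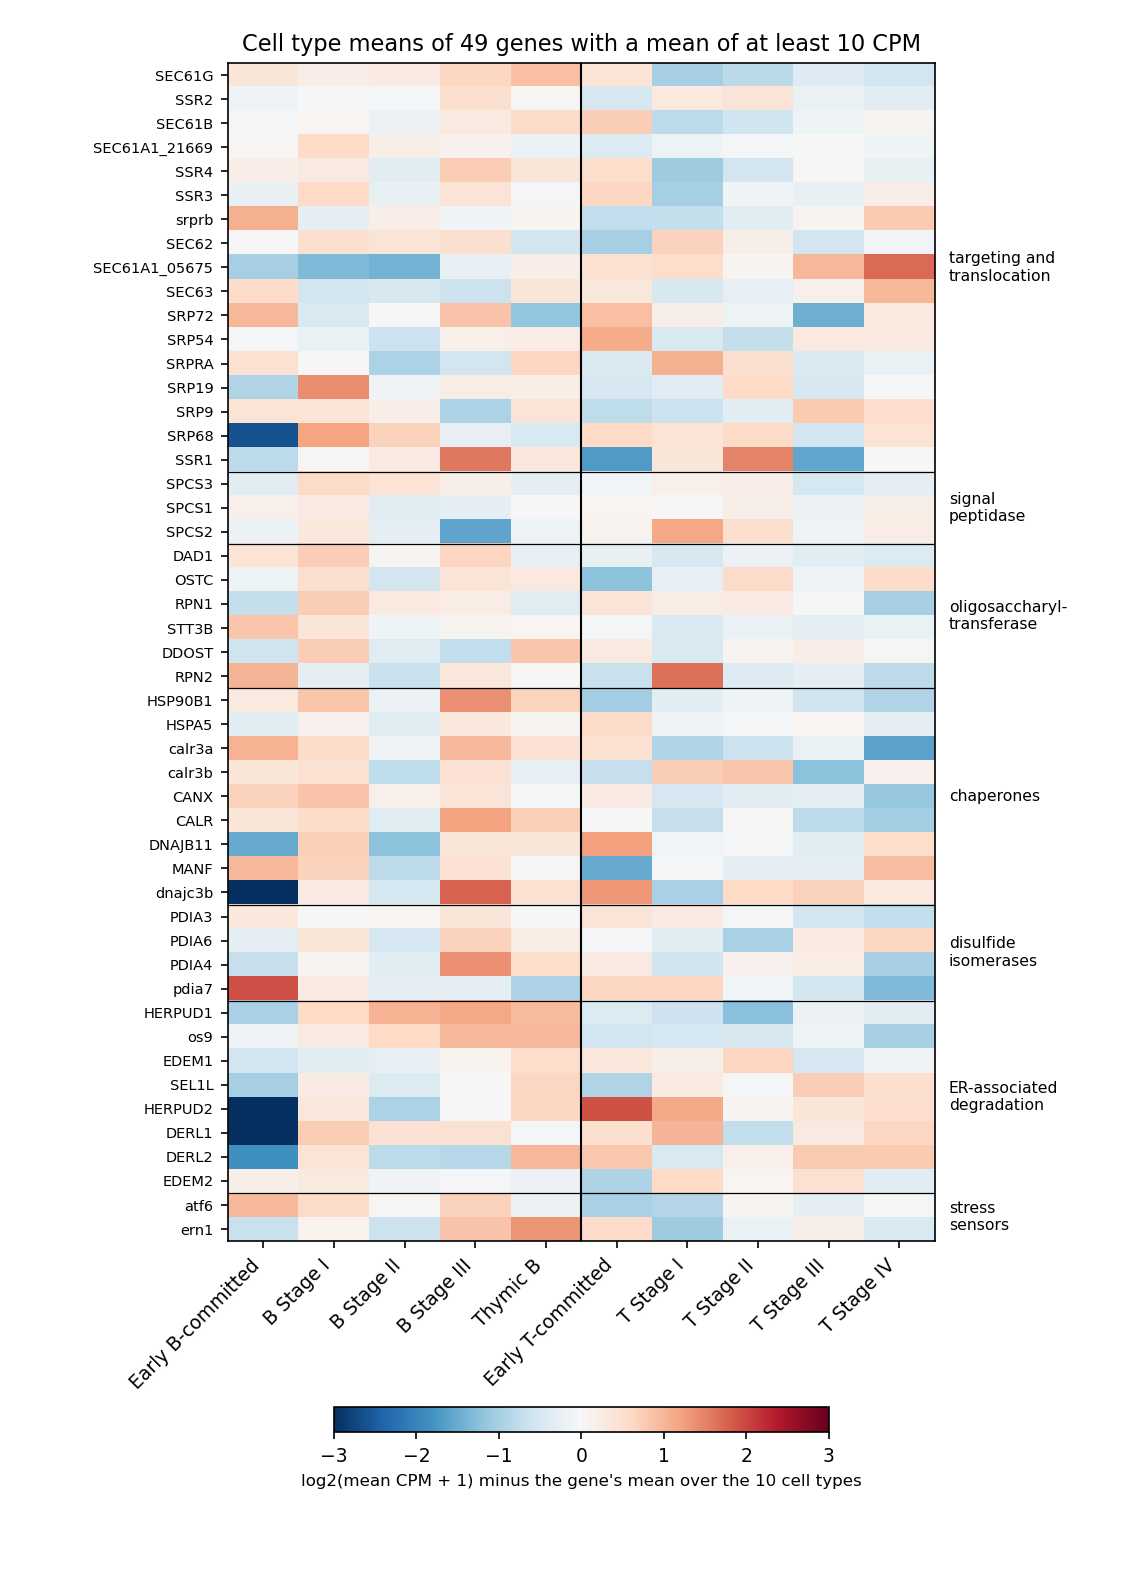
Mean level of the 49 members with a mean of at least 10 CPM over cell types, as log2(mean CPM + 1) minus the gene's own mean over the 10 cell types; rows are genes ordered by role, columns are cell types with B lineage left and T lineage right of the black line, and the colour scale stops at 3 in each direction (the last 5 digits of the identifier are shown for SEC61A1). HERPUD1, os9 and SEC61G are mostly redder on the left. The exceptions are early B-committed cells for HERPUD1, which lie with the T lineage, and early T-committed cells for SEC61G, which lie with the B lineage. SEC61A1_05675 is reddest in T Stage IV, and most other rows show no split at the line.

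Genes of the same pathway outside the membership were read from 5 lists of folding and glycosylation, entry and processing, degradation, stress signalling and transport genes. Of 101 listed genes 84 were measured, in 86 rows. Between thymic B and thymic T cells 4 rows were called higher and 4 lower, 9.3% of rows against 11.2% of all genes. XBP1, the transcription factor that IRE1 activates, was at 185 ± 139 against 41.6 ± 29.2 CPM (log2 fold change 2.70, SE 0.33, adjusted p = 1.61e-12). The isomerase P4HB (log2 fold change 1.01), the ubiquitin ligase SYVN1 (1.37), which acts with SEL1L and HERPUD1, and the conjugating enzyme UBE2G2 (1.92) were also higher (adjusted p of 0.0325, 0.0431 and 0.0326). Lower were the glucosidase GANAB (-1.68), the vesicle coat genes SEC24B (-5.11) and sec23a (-2.29) and the stress-induced pseudokinase TRIB3 (-4.76, 2.13 ± 4.51 against 51.2 ± 44.7 CPM), with adjusted p of 0.00597, 0.00219, 0.0377 and 4.12e-05 from edgeR. No entry and processing gene was called in either direction.

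Over all B against all T groups the lists gave 4 higher (XBP1, the oxidase ERO1B, SYVN1 and the cargo receptor TMED2) and 1 lower (TRIB3), 5.81% of rows against 6.01% of all genes. XBP1 was also higher in B Stage I than in T Stage II (328 ± 62.2 against 18.9 ± 10.8 CPM, log2 fold change 4.28, adjusted p = 1.58e-13), where TRIB3 was again lower. ERO1B, which passes oxidising power to the disulfide isomerases, was the one listed gene called between thymic B and early T-committed cells (123 ± 75.8 against 40.8 ± 21.2 CPM, log2 fold change 1.83, adjusted p = 0.0312). XBP1 was not called there, its mean in early T-committed cells being 274 CPM.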

How the data were processed

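RNA of sorted zebrafish lymphocytes was sequenced from transcript 3′ ends (QuantSeq FWD), per the labels' protocols. The authors deposited raw counts per gene for 53 libraries. The submitters' processing notes name FastQC 0.11.8, STAR, featureCounts, DESeq2 1.38.3 and GRCz11, without their roles. The strand setting and annotation release are not given in the sources used here. The label "T State III" was read as T Stage III. Symbols came from a table of identifiers, in which 13909 genes had one; the gfp row was counted in library totals and not tested.

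From the deposited counts, CPM were computed over all rows. The test was edgeR's quasi-likelihood F test (version 4.0.16, R 4.3.3, TMM scaling, robust), fitted once to all libraries with 19 group means, and the differences are contrasts within lines averaged over lines, adjusted by Benjamini-Hochberg over 14423 genes. Genes needed 10 counts in 3 or more libraries, and 0 genes were removed. Fold changes of genes at or near 0 on one side depend on a prior count and are not sizes to rely on. The dispersion setting of the quasi-likelihood fit (that version's newer, non-legacy form) was settled after results under it and under an estimated trended dispersion had both been seen. It was kept because earlier processing of these data had used it, and the other fit is given as an alternative chosen after seeing the data. The code was tested on simulated data, in which the share of false calls was above the nominal level, so adjusted p-values just under the threshold may be too small. Members, lists, markers and tests were chosen with earlier results of these data known.

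Genes named are the called members with at least 10 CPM on the higher side (up to 12 per direction in thymic B against thymic T, up to 4 in other comparisons), a core of members per role, and listed pathway genes. SSR2, calr3b and members outside that core that are named without an adjusted p under 0.05 were chosen after their values were seen. Alternatives were median-ratio scaling, no filter, a filter of 10 counts in 10 libraries, the compared libraries alone, DESeq2 1.42.0 and leaving out each library. Since the main filter removed 0 genes, the setting with no filter is the same fit and could not differ. A count of 0 allows up to 3 counts, and this limit covers counting error only. Over 50 pairs of libraries of 1 group, chi-square per degree of freedom was at least 121, so none was 1 library deposited more than once. No label gives a batch, so a batch and a line cannot be told apart. Sequences and coordinates were not used here.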

Additional observations from a re-analysis of the deposited data

Results flagged for a closer look

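In cell types of 6 libraries, the gap between the most extreme library and its nearest neighbour was compared with the range for 18 quantities (the summed members, their role groups and the named genes), 90 groups in all. In 7 of these, 1 library stood far above the others. The limit is passed by about 1 in 20 groups of independent, normally distributed values. Each group here joins lines or sorted populations and the quantities share genes, so that rate does not carry over. HERPUD1 in B Stage II was 413 CPM in the rag2RFP-cd79aGFP replicate 44, against 147 CPM in the next library. SEC61G in early T-committed cells was 1351 CPM in the lckmCherry-cd79bGFP replicate 22, against 747 CPM. CALR in B Stage II was 114 CPM in the rag2RFP-cd79bGFP replicate 14, against 44.6 CPM, and the same library held the highest signal peptidase sum, 587 CPM against 422 CPM. The oligosaccharyltransferase sum in T Stage I was 580 CPM in the rag2RFP-cd79aGFP replicate 28, against 365 CPM. The co-chaperone dnajc3a was 45.0 CPM in early T-committed replicate 54 against 6.70 CPM in the next library, and 0.407 CPM in T Stage I replicate 32 against 0.106 CPM, the latter a level of a few counts.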

How the results depend on the processing

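No paired analysis was possible because sample numbers run on over the series and no number occurs in more than 1 group. With thymic B against thymic T at 8 members called, DESeq2 called 15 (9 higher, 6 lower) and the estimated trended dispersion 4, and leaving out 1 library gave 5 to 9. All B against all T (6) gave 13 with DESeq2 and 3 to 6 with a library left out. B Stage I against T Stage II (3) gave 9 with its own libraries alone, 6 with DESeq2, 0 with the trended dispersion and 0 to 3 with a library left out. Thymic B against early T-committed (3) gave 1 with its own libraries and 1 to 4 with a library left out. Thymic B against B Stage II (1) gave 0 with median-ratio scaling, with its own libraries and with the trended dispersion, 8 with DESeq2, and 0 to 1 with a library left out. Comparisons with 0 calls gave, with DESeq2, 11 (B Stage I against early B-committed), 2 (B Stage II against B Stage I), 1 (B Stage III against B Stage II), 4 (T Stage II against T Stage I), 1 (T Stage IV against T Stage III) and 5 (difference between rag2 lines), and 2 for each of the first 2 with their own libraries; leaving out a library gave 0 in all of them. Where no share of all genes called is printed for a setting, its count cannot be read as a result about the members. The summed ratio of 1.30 was 1.49 with TMM scaling, 1.58 with median-ratio scaling, 1.12 without SEC61G and 1.24 to 1.33 with a library left out. Of the single-gene values, 246 kept their side of the threshold under settings other than leaving out 1 library, 20 lost a call and 3 gained one. The 246 include values from settings that repeat the main fit: no filter, and for all B against all T the compared libraries alone. With a library left out, CALR ranged from -1.96, where it reversed, to 1.80. Median-ratio scaling moved the median of all genes from -0.73 to -0.55 in thymic B against B Stage II, from 1.07 to 0.94 in B Stage I against early B-committed and from 0.31 to 0.18 in the line difference. Except where stated, the cause of a change was not tested. Members near 0 were not detected in every library: thymic B libraries detected 30 to 57 of the 62. At 7756073 counts thymic B replicate 4 detected 30, and at 7793499 counts B Stage II replicate 14 detected 51. The part of depth in this was not tested.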
